A study of Mus musculus with 6 samples.

Results

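A set of 9 genes of transforming growth factor beta (TGF-beta) signalling was followed in B16-F1 melanoma tumours: the ligand genes Tgfb1, Tgfb2 and Tgfb3, the receptor genes Tgfbr1, Tgfbr2 and Tgfbr3, the latency gene Ltbp1, the feedback inhibitor gene Smad7 and the induced gene Tgfbi. They are 9 of the 22180 genes that had at least 1 probe set annotated to them alone. Where a gene had several, the brightest was taken, chosen by its mean level over all 6 arrays. Each of the 9 had 1 such probe set, so the choice fell on it. B16-F1 is a pigmented mouse melanoma line. Its cells were inoculated at the dorsal flank of Stat2 KO mice or of WT mice, both on the C57BL6 background, and the tumours were frozen at day 20. There were 3 tumours from Stat2 KO hosts and 3 from WT hosts, with 1 Affymetrix array each. The knockout belongs to the host, no label says that the implanted cells lack Stat2, and the age of the mice, the kind of Stat2 allele and whether each tumour came from a separate mouse are not given in the sources used here. The p-values set the host difference against the spread between tumours of the same host group. Whether that spread is one between mice is not known.

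TGF-beta ligands are secreted in a latent form, bound to their own propeptide and, through it, to latent TGF-beta binding proteins in the matrix, and act once they are released. A released ligand joins a type II and a type I receptor kinase, which phosphorylates SMAD2 and SMAD3, and these enter the nucleus with SMAD4. In tumours the pathway is known for restraining T cells, for driving fibroblasts to make matrix and for shaping the behaviour of macrophages. STAT2, missing in the Stat2 KO hosts, is a transcription factor that carries the type I interferon signal to interferon-stimulated response elements (ISRE) in DNA.

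Promoter letters are shown for Tgfbi, the induced gene whose level was lower in Stat2 KO hosts in these data, and for Tgfb1, whose 2 groups overlapped. The windows are the 250 bases before the annotated start, from RefSeq on GRCm38.p6, and 6 of the 9 genes, with 8 windows, were matched in that table. Tgfb3, Tgfbr3 and Smad7 had no window there, so their promoters were not searched. Capitals mark matches, on either strand, to CAGAC, the short SMAD-binding box, to the AP-1 letters TGANTCA, and to an ISRE core written as GAAANNGAAA. The Tgfbi window lies on the plus strand at chr13:56609336-56609585 and the Tgfb1 window on the plus strand at chr7:25686752-25687001.
Tgfbi: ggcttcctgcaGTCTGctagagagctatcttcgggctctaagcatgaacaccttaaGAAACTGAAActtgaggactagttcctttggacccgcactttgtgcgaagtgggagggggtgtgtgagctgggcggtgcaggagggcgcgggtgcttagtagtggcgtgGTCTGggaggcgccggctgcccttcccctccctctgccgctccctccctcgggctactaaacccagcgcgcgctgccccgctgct
Tgfb1: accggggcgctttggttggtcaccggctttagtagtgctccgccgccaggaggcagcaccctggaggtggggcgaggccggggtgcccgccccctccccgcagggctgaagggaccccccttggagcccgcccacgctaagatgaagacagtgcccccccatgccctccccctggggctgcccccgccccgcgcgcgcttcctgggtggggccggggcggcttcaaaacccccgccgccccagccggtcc

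The Tgfbi window held 1 ISRE core match, GAAACTGAAA, whose first base lay 194 bases before the start, and 2 matches to the CAGAC box, at 239 and 85 bases before the start. The Tgfb1 window held none of the 3 motifs. It was 75.2% G or C, where the Tgfbi window was 62.4% and the median over all windows 52.4%. Of the 8 windows of the 6 matched genes, 1 held the ISRE core, 6 held the CAGAC box and 0 held the AP-1 letters, and no matches overlapped. Besides Tgfbi, the CAGAC box stood in windows of Tgfb2, Tgfbr1, Tgfbr2 and Ltbp1, so it was not particular to Tgfbi. Over all 32851 promoter windows in the table, 2.98% held the ISRE core, 42.2% the CAGAC box and 6.75% the AP-1 letters. A match describes the letters and does not show that a factor binds there.

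Of the 9 genes, Tgfb3 and Tgfbi had the largest differences, and both were lower in tumours of Stat2 KO hosts, by 0.80 and 0.70 log2 units. In whole tumours, fewer cells of a type and less RNA per cell cannot be told apart. For the other 7 the difference lay between -0.091 and 0.32. With limma, 0 of the 9 genes passed an adjusted p of 0.05, where 2 of all 22180 genes, or 0.00902%, passed. At an unadjusted p under 0.05 there were 2 of the 9, Tgfb3 and Tgfbi, where 8.82% of all genes were that far. All Stat2 KO values lay below all WT values for 2 of the 9 genes, against 5.11% of all genes, and above them for 1, Ltbp1, against 8.23% of all genes. The median difference over the 9 genes was 0.0073, with 4 lower and 5 higher, beside a median of 0.021 over all genes. The 9 genes were put together with these differences known, so the counts describe the genes and support nothing further.

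**Figure D1:**
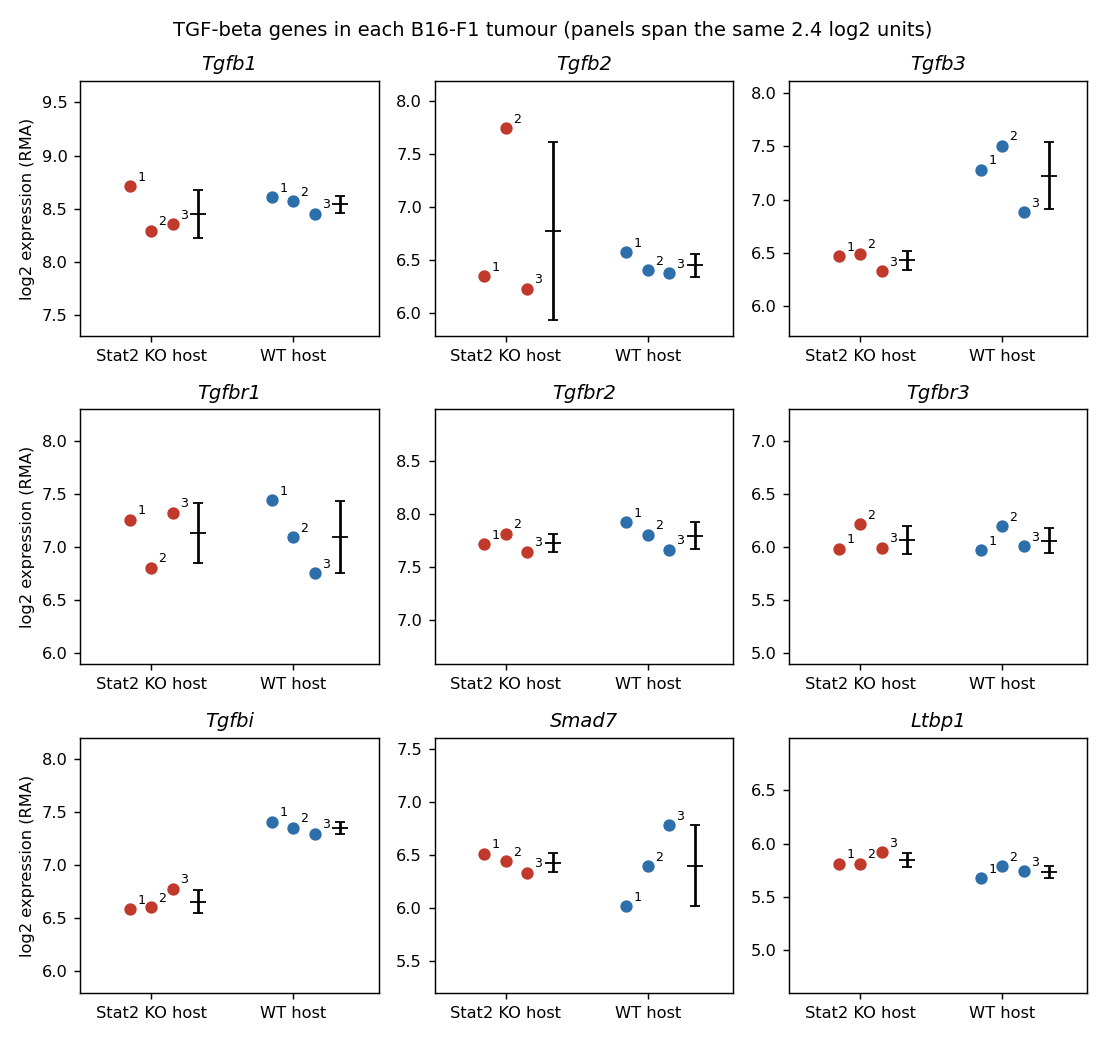
Log2 expression of each of the 9 genes in every tumour, with Stat2 KO hosts (red) left of WT hosts (blue); small digits are replicate numbers and black bars the mean ± SD of 3 tumours. Tgfb3 and Tgfbi separate by host, and Tgfb2 stands high in Stat2 KO replicate 2 at 7.74.

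The ligand genes encode the TGF-beta isoforms, which share receptors but differ in where and when they are made. Tgfb3 read 6.47, 6.49 and 6.32 in the Stat2 KO tumours, against 7.28, 7.51 and 6.88 in the WT tumours (log2 level, replicates 1 to 3). The groups were separate, with Stat2 KO hosts lower and a gap of 0.39 between the nearest values, and the spread was wider among the WT tumours, with WT replicate 3 the lowest of them. Tgfb3 averaged 6.43 ± 0.090 in tumours of Stat2 KO hosts and 7.22 ± 0.317 in those of WT hosts (SD, n = 3 each), a difference of -0.80 (SE 0.164, 95% interval -1.16 to -0.44), or 42.5% lower. The limma adjusted p was 0.316, and the unadjusted p ranked 26 among 22180 genes. Without WT replicate 3 the difference was -0.97, with a limma adjusted p of 0.0536 (range over the alternatives 0.0224 to 0.854).

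Tgfb1, the isoform that immune and stromal cells release most widely, read 8.71, 8.29 and 8.35 in the Stat2 KO tumours, against 8.61, 8.57 and 8.45 in the WT tumours. The groups overlapped, since Stat2 KO replicate 1 was the highest of all 6 and the other Stat2 KO tumours the lowest. The difference was -0.091 (SE 0.147, 95% interval -0.41 to 0.23, limma adjusted p = 0.856). The interval leaves room for a Tgfb1 level lower by 0.41 or higher by 0.23 log2 units.

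Tgfb2 read 6.35, 7.74 and 6.23 in the Stat2 KO tumours, against 6.58, 6.40 and 6.38 in the WT tumours. Stat2 KO replicate 2 stood more than 1 log2 unit above every other tumour, and Stat2 KO replicates 1 and 3 were the lowest of the 6. The difference of 0.32 (SE 0.306, 95% interval -0.35 to 0.99, limma adjusted p = 0.757) rested on that replicate, and without it was -0.16 (adjusted p = 0.898, range over the alternatives 0.453 to 0.983). The log2 ratio of Tgfb3 to Tgfb1 within an array was -2.24, -1.81 and -2.03 in Stat2 KO hosts, against -1.33, -1.06 and -1.57 in WT hosts. These ratios did not overlap between the groups and differed by -0.71, which describes unequal differences of the isoforms; since each probe set has its own response, it does not give how much of each isoform there was.

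Tgfbi encodes a secreted matrix protein that binds integrins and collagen and is switched on by TGF-beta in many cell types. It read 6.59, 6.60 and 6.78 in the Stat2 KO tumours, against 7.41, 7.35 and 7.30 in the WT tumours. The groups lay 0.52 log2 units apart at their nearest values, a gap wider than the spread within either group, which was 0.19 among Stat2 KO and 0.11 among WT tumours. Tgfbi averaged 6.66 ± 0.106 in tumours of Stat2 KO hosts and 7.35 ± 0.056 in those of WT hosts (SD, n = 3 each), a difference of -0.70 (SE 0.129, 95% interval -0.98 to -0.42), or 38.4% lower. The limma adjusted p was 0.257, and the unadjusted p ranked 13 among 22180 genes. By size of the difference Tgfb3 was the 45th and Tgfbi the 70th lowest of all genes.

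**Figure D2:**
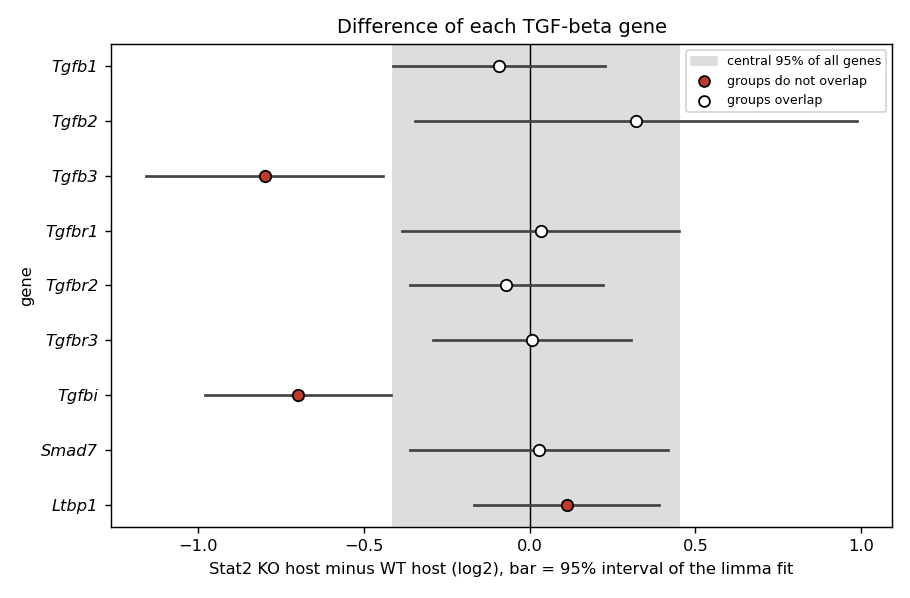
Difference between Stat2 KO and WT hosts for each gene (horizontal axis, log2) with the 95% interval of the limma fit; filled points mark genes whose groups did not overlap, and the grey band spans the central 95% of all genes, -0.41 to 0.45. The points of Tgfb3 (-0.80) and Tgfbi (-0.70) lie left of the band and the other 7 inside it.

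The differences of the 3 receptor genes lay between -0.070 and 0.034, and their groups overlapped. Tgfbr1, the type I receptor kinase, read 7.26, 6.80 and 7.32 in the Stat2 KO tumours, against 7.44, 7.09 and 6.75 in the WT tumours, with wide spread in both groups. Its difference was 0.034 (SE 0.192, 95% interval -0.38 to 0.45, limma adjusted p = 0.964). Tgfbr2, the type II receptor that binds the ligand first, read 7.72, 7.82 and 7.65 in Stat2 KO hosts, against 7.92, 7.81 and 7.67 in WT hosts. The values of Tgfbr2 interleaved, with a difference of -0.070 (SE 0.133, 95% interval -0.36 to 0.22, limma adjusted p = 0.881).

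Tgfbr3, also called betaglycan, is a co-receptor that presents ligand, above all TGF-beta 2, to the signalling receptors. It read 5.99, 6.22 and 5.99 in Stat2 KO hosts, against 5.97, 6.19 and 6.01 in WT hosts, so that replicate 2 was the highest in both groups. The Tgfbr3 difference was 0.0073 (SE 0.137, 95% interval -0.29 to 0.31, limma adjusted p = 0.988). The interval of Tgfbr1 was about as wide as the grey band in the plot of differences, and those of Tgfbr2 and Tgfbr3 were narrower. All 3 leave room for a difference in either direction, so a p that misses the threshold does not show equal levels.

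Smad7, which SMAD3 induces and which then blocks the type I receptor, read 6.52, 6.44 and 6.33 in Stat2 KO hosts, against 6.02, 6.40 and 6.79 in WT hosts. The Stat2 KO values lay inside the WT range, and the WT tumours spread over 0.76 log2 units, against 0.18 among the Stat2 KO tumours. The difference was 0.030 (SE 0.179, 95% interval -0.36 to 0.42, limma adjusted p = 0.967). Ltbp1, which tethers latent TGF-beta to the matrix, read 5.81, 5.81 and 5.92 in Stat2 KO hosts, against 5.67, 5.79 and 5.74 in WT hosts. All Ltbp1 values of Stat2 KO tumours lay above all WT values by a gap of only 0.021, with a difference of 0.11 (SE 0.129, 95% interval -0.17 to 0.39, limma adjusted p = 0.799). After a further quantile normalization, median centring or cyclic loess the Ltbp1 groups overlapped, and the difference was 0.031, 0.037 and 0.0089.

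Probe sets without detection calls can read hybridization background. As a yardstick, 1088 olfactory receptor genes, whose known use is in smell, had a median level of 5.21 and a 95th percentile of 6.73. Tgfb1, Tgfbr1 and Tgfbr2 read above 6.73 on average in both groups, and Tgfbr3, Smad7 and Ltbp1 below it in both. Tgfb3 and Tgfbi read above it in WT hosts and below it in Stat2 KO hosts, and Tgfb2 above it in Stat2 KO hosts alone.

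The other genes of the pathway were described from 4 lists. Of 16 genes that store or activate latent TGF-beta, 15 were measured. In Stat2 KO hosts 7 of them read lower and 8 higher, with 0 past the adjusted threshold and a median difference of 0.043, beside 0.021 over all genes. The largest were Thbs1, which encodes thrombospondin-1, an activator of the latent complex (-0.38, SE 0.173), and the integrin genes Itgav (0.29, SE 0.164), Itgb6 (0.26, SE 0.204) and Itgb8 (0.19, SE 0.128), whose products join as the integrins that release TGF-beta from its propeptide. Their limma adjusted p-values lay between 0.566 and 0.709. Averaged over the 6 arrays, Itgb6 (5.47) and Itgb8 (6.53) read below the olfactory 95th percentile of 6.73. Itgb8 read 6.62, 6.57 and 6.68 in Stat2 KO hosts, against 6.55, 6.40 and 6.36 in WT hosts, without overlap, and Thbs1, Itgav and Itgb6 overlapped. In this list 2 genes lay above without overlap, Itgb8 and Fbn2, and 0 below. Over all genes the shares were 8.23% above and 5.11% below. Without Stat2 KO replicate 2 the difference was -0.22 for Thbs1, 0.45 for Itgav and 0.079 for Itgb6, and without Stat2 KO replicate 1 it was 0.18 for Itgav. Leaving out Stat2 KO replicate 3 gave 0.43 for Itgb6, leaving out WT replicate 2 gave 0.16, and leaving out WT replicate 3 gave 0.45.

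Of the 12 genes of co-receptors and SMAD signalling, 11 were lower and 1 higher in Stat2 KO hosts, with a median of -0.10 and 0 past the threshold, where 46.0% of all genes were lower. Smad3, the SMAD that binds the CAGAC box, differed by -0.29 (SE 0.157), Smad4, the shared partner, by -0.16 (SE 0.129) and the inhibitory Smad6 by -0.22 (SE 0.159). Smad6 averaged 5.90 over the 6 arrays, below the olfactory 95th percentile of 6.73. Smad4 read 8.95, 8.88 and 8.76 in Stat2 KO hosts, against 9.07, 9.03 and 8.98 in WT hosts, and was the 1 gene of the 12 whose groups did not overlap, where all Stat2 KO values lay below all WT values for 5.11% of all genes and above them for 8.23%. Cd109, a membrane protein that binds TGF-beta, differed by -0.35 (SE 0.288), and by 0.075 without Stat2 KO replicate 2, which read 7.24 where replicates 1 and 3 read 8.64 and 8.41. Leaving out Stat2 KO replicate 1 gave -0.62 for Cd109, and leaving out WT replicate 3 gave -0.22. Without Stat2 KO replicate 3 the difference was -0.16 for Smad3 and -0.11 for Smad6, and leaving out Stat2 KO replicate 2 gave -0.34 for Smad6, where leaving out WT replicate 2 gave -0.12. The list's median was -0.026 after cyclic loess and -0.032 after quantile normalization.

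Of 22 genes that TGF-beta is known to induce, 20 were measured, 17 lower and 3 higher, where 46.0% of all genes were lower. Their median was -0.071, with 0 past the threshold. The list's mean level was 7.43, 7.14 and 7.25 in Stat2 KO hosts, against 7.32, 7.48 and 7.43 in WT hosts, overlapping through Stat2 KO replicate 1. The largest differences were in genes of the matrix. Fn1, which encodes fibronectin, read 9.20, 8.28 and 8.61 in Stat2 KO hosts, against 9.19, 9.68 and 9.27 in WT hosts, a difference of -0.68 (SE 0.216, limma adjusted p = 0.486). Its groups overlapped narrowly, through Stat2 KO replicate 1. The fibrillar collagen genes Col1a1 and Col3a1 differed by -0.48 (SE 0.229) and -0.41 (SE 0.156), and the matricellular gene Postn by -0.39 (SE 0.284). Col3a1 read 7.40, 6.99 and 7.36 in Stat2 KO hosts, against 7.47, 7.71 and 7.82 in WT hosts, without overlap. In this list 2 genes lay below without overlap, Col3a1 and Junb, and 1 above, Cdkn2b. Over all genes the shares were 5.11% below and 8.23% above.

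Stat2 KO replicate 2 was the lowest tumour for Fn1, Col1a1, Col3a1 and Postn, and without it their differences were -0.48, -0.21, -0.28 and -0.011. For Postn, leaving out Stat2 KO replicate 3 gave -0.67, and leaving out WT replicate 1 gave -0.20.

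**Figure D3:**
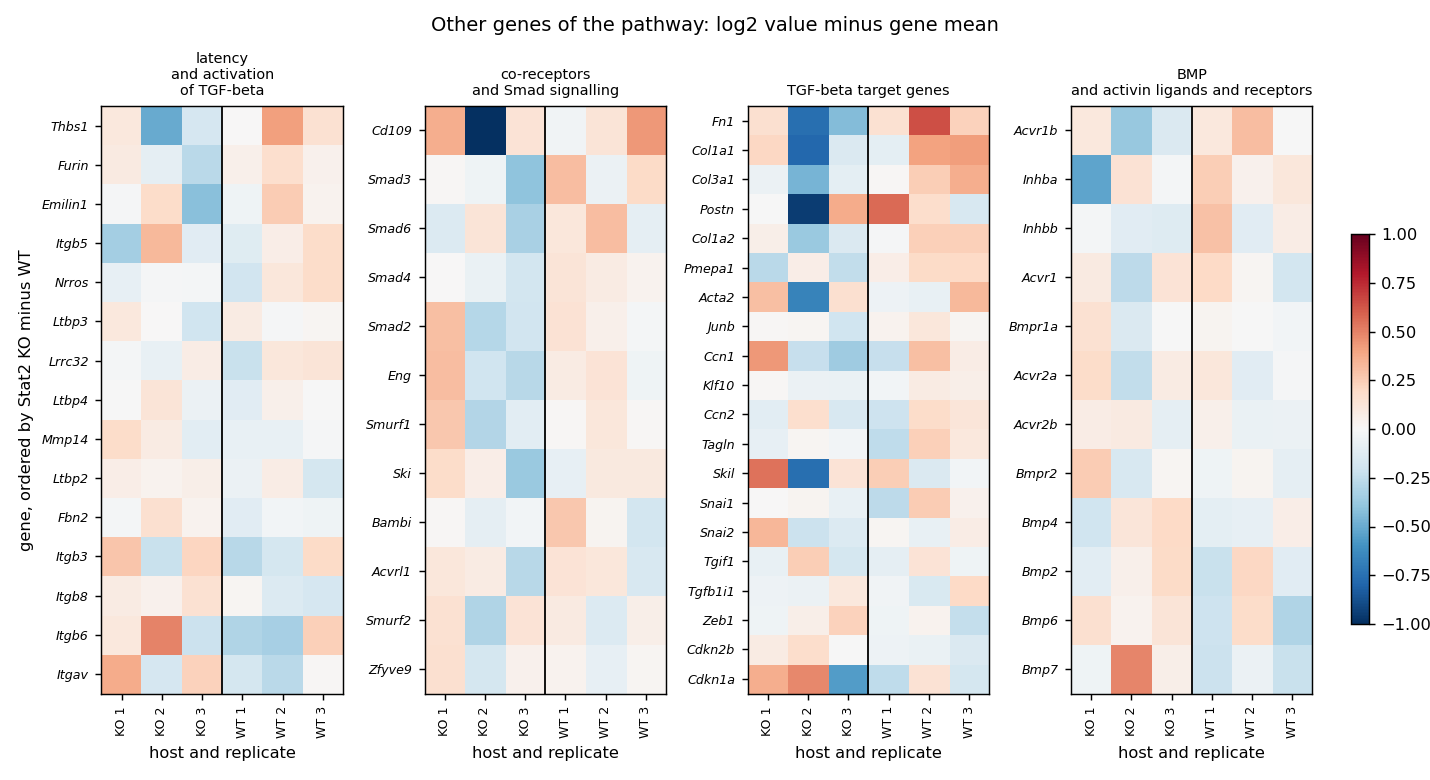
Log2 value of each measured pathway gene minus its mean over the 6 tumours, in 4 panels by list, with Stat2 KO hosts left of the black line and WT hosts right of it; genes run from the lowest to the highest difference and colour is capped at 1. In the target gene panel the matrix genes at the top are bluest in Stat2 KO replicate 2.

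In the related BMP and activin branch of the family, 12 of 13 listed genes were measured, 4 lower and 8 higher, with a median of 0.029 and 0 past the threshold. Bmp7, a ligand known to oppose TGF-beta in several tissues, differed by 0.33 (SE 0.158, limma adjusted p = 0.577), with 6.21, 6.74 and 6.31 in Stat2 KO hosts against 6.04, 6.20 and 6.04 in WT hosts. These groups did not overlap, which held for 1 of the 12 genes, where 8.23% of all genes lay above without overlap. Stat2 KO replicate 2 was the highest for Bmp7, and without it the difference was 0.17. The activin receptor gene Acvr1b differed by -0.27, the activin subunit gene Inhba by -0.27 and Bmp6 by 0.22. Averaged over the 6 arrays, Inhba (5.04), Bmp6 (5.93) and Bmp7 (6.26) read below the olfactory 95th percentile of 6.73. Inhba also read below the olfactory median of 5.21. Without Stat2 KO replicate 2 Acvr1b differed by -0.15 and Inhba by -0.41, and without Stat2 KO replicate 1 Inhba differed by -0.069. Bmp6 differed by 0.36 without WT replicate 2 and by 0.12 without WT replicate 3. Over the 4 lists, 0 genes passed the adjusted threshold, 2 had an unadjusted p under 0.05, where 8.82% of all genes did, and these were Fn1 and Col3a1, both lower.

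Patterns over the 6 tumours were compared by the root mean square difference of centred log2 values, among 11083 genes brighter than the median gene. Closest to Tgfbi were Nupr1 (0.115), Fcer1g (0.125), H2-Ab1 (0.133), Il18 (0.133) and Arid5b (0.140). The pattern of Tgfbi itself had a root mean square of 0.356 around its mean. The differences of these 5 genes between hosts lay between -0.68 for Nupr1 and -0.47 for Il18. Since they were picked by likeness to Tgfbi on the same arrays, their lower levels follow largely from the choice. For Tgfb1, with a root mean square of 0.145, the closest were Ift172 (0.0203), Prkab1 (0.0266), Cds2 (0.0268), Nectin2 (0.0287) and Mtpap (0.0287). For Tgfb3, added after its values were seen and with a root mean square of 0.442, they were Slc1a5 (0.0743), Tnfaip2 (0.0943), Map7d2 (0.0955), Akr1b8 (0.106) and BC048403 (0.111). With 6 tumours many genes share a pattern, and these names describe likeness only.

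Macrophages and fibroblasts are known sources of Tgfbi and Tgfb3, and their markers were read in the same tumours. Of 12 macrophage markers, 11 were lower and 1 higher in Stat2 KO hosts, with a median of -0.30. Their mean level was 6.32, 6.42 and 6.51 in Stat2 KO hosts, against 6.83, 6.85 and 6.64 in WT hosts, without overlap. The brightest, Lgmn and Cd68, differed by -0.51 (SE 0.142) and -0.61 (SE 0.163), and 4 of the 12 markers read above 6.73 by their mean over the 6 arrays, the measure used for each marker list. Of 10 fibroblast markers, 9 were lower, with a median of -0.11 and mean levels of 6.55, 6.33 and 6.46 in Stat2 KO hosts, against 6.98, 6.89 and 6.52 in WT hosts. Of these 10, 4 read above 6.73, and the marker with the largest difference, Lum (-1.21), averaged 6.10, below it. The fibroblast means lay in the same order as the hosts apart from Stat2 KO replicate 1, which was above WT replicate 3. The brightest of them, Pdpn and Col6a1, differed by -0.93 (SE 0.197) and -0.10 (SE 0.153), and Col6a1 lay between -0.26 and -0.016 with 1 WT array left out. The part of these markers in the lower Tgfbi and Tgfb3 levels was not tested.

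The melanocyte markers, with Dct and Tyrp1 the brightest, were lower in 7 of 8, with a median of -0.093, and all 8 read above 6.73 in these tumours labelled as melanoma. Their mean level was 11.61, 11.18 and 11.55 in Stat2 KO hosts, against 11.68, 11.56 and 11.43 in WT hosts, lowest in Stat2 KO replicate 2. Of 8 endothelial markers, 3 were lower and 5 higher, with a median of 0.062. The brightest, Cdh5 (-0.45, SE 0.196) and Pecam1 (-0.028, SE 0.137), were both lower, and Cdh5 had the lowest difference of the list. Cdh5 differed by -0.19 without Stat2 KO replicate 2. Of these 8, 4 read above 6.73. T cell, keratinocyte and skeletal muscle markers had medians of 0.062, 0.18 and 0.16 over 7, 6 and 6 genes, and 0 of them had a mean over the 6 arrays above 6.73. Acta1 alone, among the brightest of these, passed it in Stat2 KO hosts, at 6.80 on average. The skeletal muscle mean was 5.87, 6.10 and 6.06 in Stat2 KO hosts, against 5.81, 5.86 and 5.82 in WT hosts, higher without overlap, and 5 of 6 markers were higher. The part of the muscle markers in the results was not tested. In those lists the brightest were Foxp3 and Cd4, Lor and Krt1, and Acta1 and Tnnt3, with differences between -0.014 and 0.27, of which Acta1 was 0.48 without Stat2 KO replicate 1 and 0.12 without replicate 2, and Lor was 0.095 when Stat2 KO replicate 2 was left out and 0.071 when WT replicate 1 was.

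**Figure D4:**
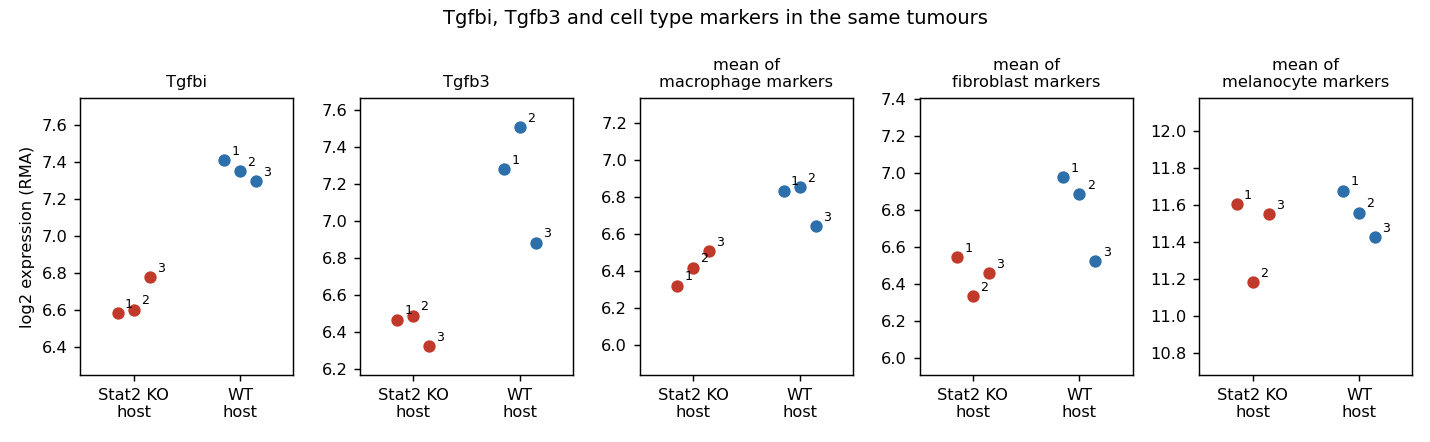
Log2 level of Tgfbi and Tgfb3 and the mean log2 level of the macrophage, fibroblast and melanocyte markers in each tumour, with Stat2 KO hosts (red) left of WT hosts (blue), replicate numbers beside the points and panels of equal height. The macrophage mean separates by host, as Tgfbi and Tgfb3 do, with a difference of -0.36. The fibroblast mean has a similar difference of -0.35 and overlaps narrowly, through Stat2 KO replicate 1 (6.55) and WT replicate 3 (6.52). The melanocyte means overlap.

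The arrays correlated with each other between 0.964 and 0.986 across genes, and 0 pairs held identical values. Stat2 KO replicate 2 had both the lowest correlation, with WT replicate 1, and the highest array median, 6.22, against 6.06 to 6.17 on the others. Stat2, the gene knocked out in the Stat2 KO hosts, read 6.45, 6.48 and 6.33 in Stat2 KO hosts, against 6.79, 6.70 and 6.70 in WT hosts, a difference of -0.31 (SE 0.126, limma adjusted p = 0.532). Since the implanted cells may carry Stat2, this is a weak check of the labels.

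**Figure D5:**
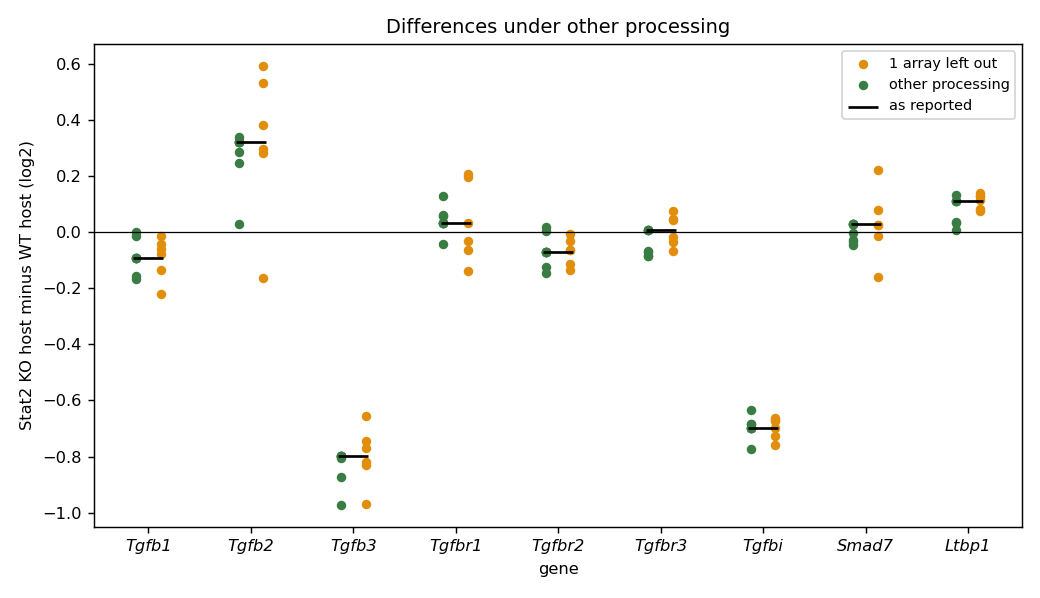
Difference between Stat2 KO and WT hosts (vertical axis, log2) for each gene as reported (black), with 1 array left out (orange) and under other processing (green). Tgfb3 stays between -0.97 and -0.66 and Tgfbi between -0.77 and -0.63, and Tgfb2 turns to -0.16 without Stat2 KO replicate 2.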

How the data were processed

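Per the submitters' processing notes, the authors ran RMA in Affymetrix Expression Console 1.3.1, and they deposited a log2 value for each of the probe sets on the 6 arrays. A genome build and an annotation release are not given in the sources used here. Of 41345 probe sets, 23521 name 1 gene in the platform annotation, 1814 several and 16010 none. The symbols needed 0 updates through the RefSeq table, and no filter on dim genes was applied. Precision is limited by the number of arrays.

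Stat2 KO minus WT differences over 22180 genes came from limma 3.58.1 in R 4.3.3 (lmFit, eBayes with an intensity trend), two-sided, Benjamini-Hochberg adjusted over all genes, with a threshold of 0.05. Intervals are 95% and use 4 residual and 8.14 prior degrees of freedom. The procedure was tested on simulated data.

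The 9 genes, the pathway and marker lists and the tests were chosen with earlier results of these data known. All 9 genes are named, with the 4 largest differences of each pathway list, the 2 brightest of each marker list, Stat2, and the 5 genes most like Tgfbi and Tgfb1. The genes most like Tgfb3 were added after its values were seen. Junb, Cdkn2b and Fbn2 are named as the remaining pathway list genes without overlap. Same-numbered tumours deviated from their group means with correlations of 0.240, 0.0790 and 0.0302, so the numbers were not taken as pairs. Alternatives were the replicate block, other normalizations, variance models, weights and probe set rules, and each array left out. The replicate block, the variance models, the probe set rules and a limit to brighter genes could not move the differences of the 9 genes. Their direction was therefore tested only by the normalizations, the array weights and the left-out arrays.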

Additional observations from a re-analysis of the deposited data

How the results depend on the processing

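Of 133 differences of single genes under the alternatives, 112 kept their direction, some in settings that could not move them, and 21 turned it. Tgfb3, Tgfbi and Ltbp1 kept theirs in every setting able to turn it. With array weights 2 of the 9 genes passed, Tgfb3 (-0.97, adjusted p = 0.0224) and Tgfbi (-0.63, adjusted p = 0.0325), where 257 genes of all passed, and the weights came from these 6 arrays. Their adjusted p ranged from 0.0224 to 0.854 and from 0.0325 to 0.714 over the alternatives. With the replicate block 0 of the 9 genes passed (Tgfb3 0.140, Tgfbi 0.165), 3 genes of all passed, and the block changed no call among the 9. Leaving out 1 array, 0 of the 9 passed each time.

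Differences that turned were Tgfb1 at 0.0021 and Tgfbr2 at 0.0038 after cyclic loess, Tgfbr2 at 0.016 after quantile normalization, and Tgfb2 at -0.16 without Stat2 KO replicate 2 (-0.16 to 0.59 with 1 array left out). Tgfbr1 turned to -0.041 after median centring and with 1 array left out lay between -0.14 and 0.21, at -0.032 without Stat2 KO replicate 1, -0.063 without replicate 3 and -0.14 without WT replicate 3. Tgfbr3 turned to -0.071, -0.067, -0.083 and -0.085 after quantile normalization, median centring, cyclic loess and array weights, and with 1 array left out lay between -0.068 and 0.075, also below 0 without WT replicate 1 (-0.036) or 3 (-0.017). Smad7 turned to -0.035, -0.045, -0.028 and -0.0021 under the same 4 settings, and with 1 array left out lay between -0.16 and 0.22, at -0.013 without Stat2 KO replicate 1. The cause was not tested.

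The count over all genes, 2 at an adjusted p of 0.05, was 0 after quantile normalization and cyclic loess, 1 without the intensity trend, and between 0 and 17 with 1 array left out, the highest without WT replicate 3. Genes at an unadjusted p under 0.05 split into 771 lower and 1185 higher as reported. The split was 794 and 889 with quantile normalization, 1108 and 654 with median centring, and 878 and 800 with cyclic loess. Of the 9 genes, 4 were lower as reported, 7 after median centring and 4 to 6 with 1 array left out. Their median was -0.067 after median centring, -0.085 with array weights and between -0.14 and 0.027 with 1 array left out. The limit to genes brighter than the median gene dropped Tgfbr3 and Ltbp1. It gave a median of -0.070 over the remaining genes, whose differences did not change. The median of the latency list was -0.032 after median centring and between -0.0023 and 0.082 with 1 array left out, and that of the BMP and activin list -0.045 and between -0.052 and 0.085. Those of the co-receptor and target lists lay between -0.21 and -0.044 and between -0.18 and -0.045 with 1 array left out. Groups without overlap numbered 3 as reported, where Stat2 KO values lay below for 5.11% of all genes and above for 8.23%. Under each of the 3 other scalings they numbered 2, Tgfb3 and Tgfbi, an alternative chosen after seeing the data. The share of all genes was not computed under those scalings, so their counts have no background. Signal over background was not measured here, which limits the genes that read below the olfactory yardstick.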
